A study of Mus musculus with 6 samples.

Results

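The Fc receptor genes are the 10 rows of the deposited count table whose symbols are Fcgr1, Fcgr2b, Fcgr3, Fcgr4, Fcer1g, Fcrls, Fcgrt, Fcer1a, Ms4a2 and Fcer2a, out of 49568 rows in all. They were chosen by symbol, and they and the related gene lists below were drawn up with earlier results of these data known. Of the 10, 8 passed the filter on low counts and were among the 19199 genes tested, and Fcer1a and Ms4a2 were not. Poly(A) RNA of whole lungs was sequenced as 1 library per mouse in 3 TNF+ and 3 TNF- females, all 4 months old. TNF+ mice bear a transgene of human TNF and develop inflammatory-erosive arthritis with lung disease, and TNF- mice are their littermates without the transgene. All mice are on the C57BL/6 background. The comparison asks how the lung's transcripts differ between transgenic mice and their littermates.

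Fc receptors bind the constant part of antibodies and so tie antibodies to the cells that carry the receptor. The mouse IgG receptors Fcgr1, Fcgr3 and Fcgr4 activate myeloid cells and carry no signalling motif of their own, so they are held at the surface and signal through the common gamma chain Fcer1g, whereas Fcgr2b carries an inhibitory motif and dampens the same cells and B cells. Fcer1a and Ms4a2 are the alpha and beta chains of the high-affinity IgE receptor of mast cells and basophils, Fcer2a is the low-affinity IgE receptor of B cells, and Fcgrt pairs with B2m to spare IgG and albumin from breakdown. In the lung, macrophages, monocytes, dendritic cells, neutrophils, mast cells, B cells and endothelium carry different members of the family.

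Total counts ranged from 25396923 to 30049463 in TNF+ lungs and from 31400978 to 32529408 in TNF- lungs, so that 3 counts stand for between 0.0922 and 0.118 CPM, counts scaled to the library total. A pair of libraries stood apart in ways that the genotype does not name. In TNF+ replicate 1, Gm42418, a gene that overlaps ribosomal RNA repeats, took 5.22% of the counts, against 0.0774% to 0.274% in the other lungs. TNF- replicate 1 held 56570 counts of Krt4 and 45433 of Krt13, keratins of squamous epithelium, where the other lungs held 8 or fewer of each. Fold changes and ratios of the tested Fc receptor genes are also given without each of these libraries. Mouse Tnf had counts of 106, 213 and 405 in TNF+ lungs against 16, 14 and 35 in TNF- lungs, and whether reads of the human transgene reached that row was not tested.

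Fcgr2b, Fcgr4, Fcgr3 and Fcer1g lie in this order along chromosome 1 of GRCm38. In GENCODE M21, Fcgr2b spans 170958617 to 170976547 and Fcgr3 spans 171051174 to 171064935 on the minus strand, Fcgr4 spans 171018920 to 171029761 on the plus strand, and Fcer1g spans 171229572 to 171234365 on the minus strand. Fcer1a (173221284 to 173227214, minus strand) lies farther along the same chromosome. Fcgr1 (96282909 to 96293969, minus strand) and Fcrls (87250758 to 87263738, minus strand) are on chromosome 3. Fcgrt is on chromosome 7 (45092990 to 45103851, minus strand), Fcer2a on chromosome 8 (3681737 to 3694175, minus strand) and Ms4a2 on chromosome 19 (11615523 to 11623719, minus strand).

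The receptors Fcgr2b and Fcgr3 share a stretch of coding sequence, shown here because a read that lies wholly within it cannot be given to either gene. The run is 129 bases long and crosses from exon 3 into exon 4 of both genes. In Fcgr2b it covers chr1:170967980-170968081 and chr1:170966674-170966700, and in Fcgr3 it covers chr1:171057691-171057792 and chr1:171054167-171054193, all on the minus strand of GRCm38.
Fcgr2b and Fcgr3, shared run: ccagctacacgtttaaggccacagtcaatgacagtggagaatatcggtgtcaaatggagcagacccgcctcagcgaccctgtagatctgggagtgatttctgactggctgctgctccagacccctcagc
Over all their transcripts, 2.54% of the 100-base windows of Fcgr3 also occurred in Fcgr2b, and 4.3% of the windows of Fcgr2b occurred in another gene, most of these as the reverse complement of genes at other loci. Of 1733 windows of Fcgr3, 44 were shared, so that most of its length can be told from its neighbour. Fcgr1, Fcgr4, Fcer1g, Fcrls, Fcgrt, Fcer1a and Fcer2a had no shared window, and Ms4a2 shared 0.41% of its windows with Ms4a4b.

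The 5 members that passed the test are all expressed by myeloid cells, so the 250 bases before their starts were read for the letters GAGGAA on either strand, the core bound by the myeloid factor PU.1. These letters were chosen after the sequences had been seen. Fcgr1, Fcgr3 and Fcgr4 held the letters within 50 bases of a start, and Fcgr2b and Fcer1g held none. The 3 that held them are shown with Fcer1g, from the RefSeq promoters of GRCm38.p6. Capitals mark GAGGAA or, on the printed strand, its reverse complement TTCCTC.
Fcgr1, chr3:96293970-96294219, minus strand: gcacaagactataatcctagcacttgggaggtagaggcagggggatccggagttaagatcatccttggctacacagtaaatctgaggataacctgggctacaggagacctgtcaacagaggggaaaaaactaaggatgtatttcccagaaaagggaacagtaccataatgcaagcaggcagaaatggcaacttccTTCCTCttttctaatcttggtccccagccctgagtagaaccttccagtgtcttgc
Fcgr3, chr1:171059395-171059644, minus strand: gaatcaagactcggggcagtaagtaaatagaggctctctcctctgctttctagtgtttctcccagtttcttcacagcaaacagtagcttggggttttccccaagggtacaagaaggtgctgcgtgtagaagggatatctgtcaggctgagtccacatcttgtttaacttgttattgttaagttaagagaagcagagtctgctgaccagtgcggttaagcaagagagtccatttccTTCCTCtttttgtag
Fcgr4, chr1:171018676-171018925, plus strand: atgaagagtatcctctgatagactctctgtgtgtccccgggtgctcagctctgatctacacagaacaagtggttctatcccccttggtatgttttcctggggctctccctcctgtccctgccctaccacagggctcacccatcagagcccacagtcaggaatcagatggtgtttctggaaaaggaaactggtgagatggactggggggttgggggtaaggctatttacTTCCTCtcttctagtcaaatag
Fcer1g, chr1:171234350-171234599, minus strand: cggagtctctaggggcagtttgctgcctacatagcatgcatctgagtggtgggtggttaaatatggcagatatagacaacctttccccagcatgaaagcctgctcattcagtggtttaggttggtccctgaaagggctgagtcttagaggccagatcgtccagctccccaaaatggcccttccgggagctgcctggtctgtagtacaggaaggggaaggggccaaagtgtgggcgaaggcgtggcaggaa
The match lay 50 bases before the start of Fcgr1, 10 before the Fcgr3 start shown and 17 before the start of Fcgr4. The Fcgr3 stretch shown lies inside the span of that gene in GENCODE M21 given above. Among the members that passed the test 3 of 5 held the letters, and among the others 2 of 5 did (Fcrls, 139 bases before its start, and Fcer1a, 211 before). Of 32851 RefSeq promoters of the same length, 23.3% held them. The interferon-type letters TTCNNNGAA were found in Fcgr1 alone, 101 bases before its start, and in 7.0% of all promoters. The letters GATAAG, read by GATA factors, were found in Ms4a2, 33 bases before its start, and in Fcrls, 218 before, and in 6.5% of all promoters. A match is a run of letters and not a measured binding site.

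Of the 8 Fc receptor genes tested, 5 were higher in TNF+ lungs (Fcgr1, Fcgr2b, Fcgr3, Fcgr4 and Fcer1g), none was lower, and Fcgrt, Fcrls and Fcer2a did not pass the test (quasi-likelihood test of edgeR, adjusted by Benjamini-Hochberg over every gene tested, cutoff 0.05). Over all tested genes 47.4% passed, made up of 24.0% of all tested genes as higher and 23.4% as lower in TNF+ lungs. The median log2 fold change was 1.14 over the 8 members and 0.03 over all tested genes. In 4 of the 8 the lowest TNF+ lung exceeded the highest TNF- lung. The groups were apart in either direction in 58.7% of all tested genes, and in this direction in 30.5%. These are whole-lung libraries, in which more cells of a type and more RNA per cell cannot be told apart.

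**Figure D1:**
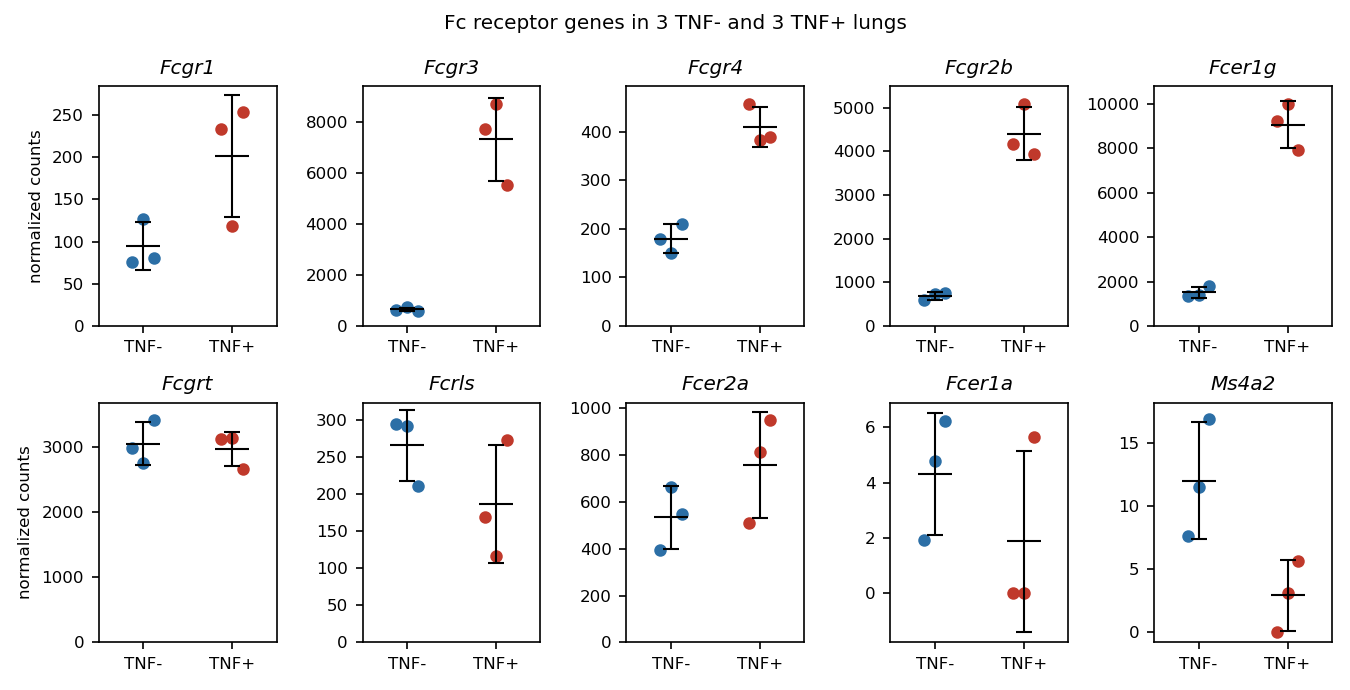
Normalized counts (counts divided by the TMM-scaled library size and multiplied by its mean, linear axes that differ between panels) of the 10 Fc receptor genes in each TNF- (blue) and TNF+ (red) lung, with the mean and SD of 3 lungs as a line and bars. The groups lie apart in Fcgr3, Fcgr4, Fcgr2b and Fcer1g with TNF+ above, and in Ms4a2 at very low counts with TNF- above, and they overlap in the other 5 genes.

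Fcgr3, the low-affinity activating IgG receptor, moved most. It had 7719, 8703 and 5534 normalized counts in TNF+ lungs and 615, 731 and 589 in TNF- lungs. The lowest TNF+ lung stood far above the highest TNF- lung. The means were 7319 ± 1622 and 645 ± 75.6 (SD, n = 3 each), an 11.3-fold rise (95% interval 8.38 to 15.3) with a log2 fold change of 3.50, a standard error of 0.19 and an adjusted p of 8.9e-06 from edgeR. Of all tested genes, 2.03% rose by at least as much. Without TNF+ replicate 1 the log2 fold change was 3.43, and without TNF- replicate 1 it was 3.44.

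Fcer1g, the common gamma chain through which Fcgr1, Fcgr3, Fcgr4 and the IgE receptor signal, had 9247, 10003 and 7909 normalized counts in TNF+ lungs and 1335, 1406 and 1775 in TNF- lungs. The groups were far apart. The rise was 6.01-fold (95% interval 4.73 to 7.65), from a mean of 1505 ± 236 to 9053 ± 1061 (SD, n = 3 each), with a log2 fold change of 2.59, a standard error of 0.15 and an adjusted p of 1.18e-05 from edgeR. Of all tested genes, 3.23% rose by at least as much. Without TNF+ replicate 1 the log2 fold change was 2.54, and without TNF- replicate 1 it was 2.48.

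Fcgr2b, the inhibitory IgG receptor, had 4182, 5094 and 3951 normalized counts in TNF+ lungs and 586, 736 and 759 in TNF- lungs. Here too each TNF+ lung lay far above each TNF- lung. The mean went from 694 ± 94.0 to 4409 ± 605 (SD, n = 3 each), a 6.36-fold rise (95% interval 5.03 to 8.03) with a log2 fold change of 2.67, a standard error of 0.15 and an adjusted p of 9.31e-06 from edgeR. The inhibitory receptor thus rose beside the activating ones. Without TNF+ replicate 1 the log2 fold change was 2.67, and without TNF- replicate 1 it was 2.53. A non-coding gene antisense to Fcgr2b, Gm38204, covers 2.68% of its exon bases and had 0 counts in every lung.

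Fcgr4, an activating receptor of intermediate affinity that binds IgG2 subclasses, rose less. It had 458, 383 and 389.9 normalized counts in TNF+ lungs and 179.7, 149.5 and 209.7 in TNF- lungs. The groups did not overlap and the TNF+ lungs lay close together. The rise was 2.28-fold (95% interval 1.75 to 2.97), from 179.6 ± 30.1 to 410.0 ± 41.3 (SD, n = 3 each), with a log2 fold change of 1.19, a standard error of 0.17 and an adjusted p of 0.000743 from edgeR. Without TNF+ replicate 1 the log2 fold change was 1.07, and without TNF- replicate 1 it was 1.16.

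Fcgr1, the high-affinity IgG receptor, had the widest spread of the IgG receptors relative to its mean. It had 233, 119 and 253 normalized counts in TNF+ lungs and 75.5, 127 and 80.9 in TNF- lungs. TNF+ replicate 2 lay below TNF- replicate 2, so that the groups overlapped. The means were 202 ± 72.4 and 94.3 ± 28.0 (SD, n = 3 each), and the rise was 2.14-fold (95% interval 1.27 to 3.59) with a log2 fold change of 1.10, a standard error of 0.33 and an adjusted p of 0.0244 from edgeR. With fewer lungs the call was lost in 4 of 6 cases, while the log2 fold change stayed near its value. It was 0.95 without TNF+ replicate 1 (adjusted p = 0.0835), 0.88 without TNF+ replicate 3 (adjusted p = 0.0883), 0.94 without TNF- replicate 1 (adjusted p = 0.0792) and 0.99 without TNF- replicate 3 (adjusted p = 0.0704).

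**Figure D2:**
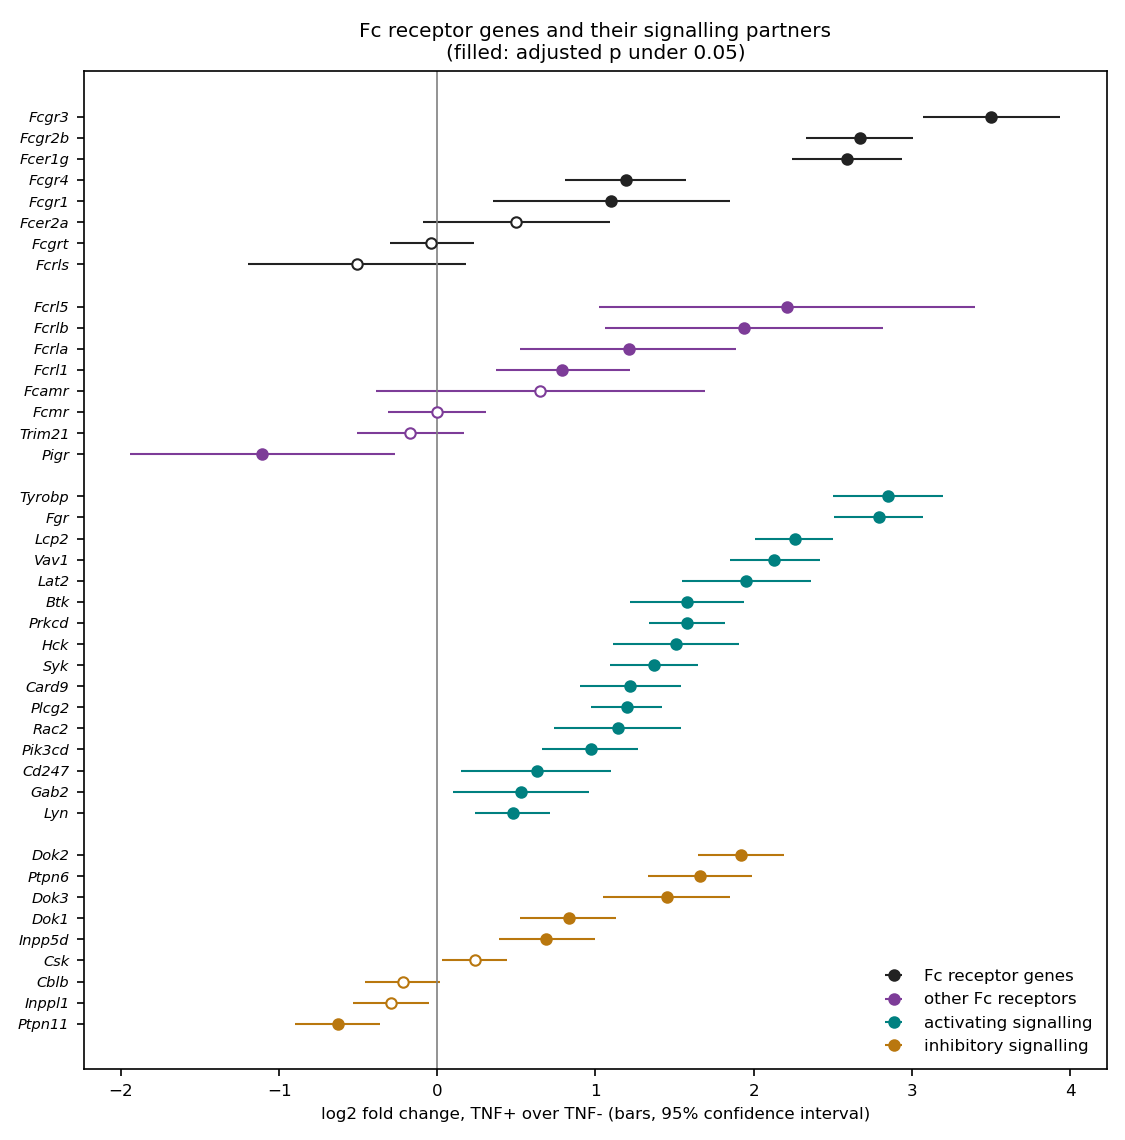
Log2 fold change (TNF+ over TNF-) with its 95% interval from edgeR for the tested Fc receptor genes and the genes of the related lists, filled where the adjusted p was under 0.05. Fcgr3 stands at 3.50, Fcgr2b at 2.67 and Fcer1g at 2.59, while the intervals of Fcgrt, Fcrls and Fcer2a include 0.

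The rise was unequal among the IgG receptors, and their make-up per length differed between the groups. Of the summed reads per kilobase of exon over Fcgr1, Fcgr2b, Fcgr3 and Fcgr4, Fcgr3 made up 79.1%, 80.3% and 74.5% in TNF+ lungs and 56.5%, 58.8% and 50.8% in TNF- lungs. Fcgr4 made up 6.48%, 4.88% and 7.26% in TNF+ lungs and 22.8%, 16.6% and 25.0% in TNF- lungs. The share of Fcgr3 was thus higher and that of Fcgr4 lower in every TNF+ lung. Fcgr2b made up 12.8%, 14.1% and 15.9% in TNF+ lungs and 16.1%, 17.7% and 19.6% in TNF- lungs. Fcgr1 made up 1.6%, 0.736% and 2.28% in TNF+ lungs and 4.64%, 6.82% and 4.67% in TNF- lungs. Both shares were lower in TNF+ lungs, by a narrow gap for Fcgr2b, although the counts of both genes were higher, since shares of a sum fall where another member rises more.

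**Figure D3:**
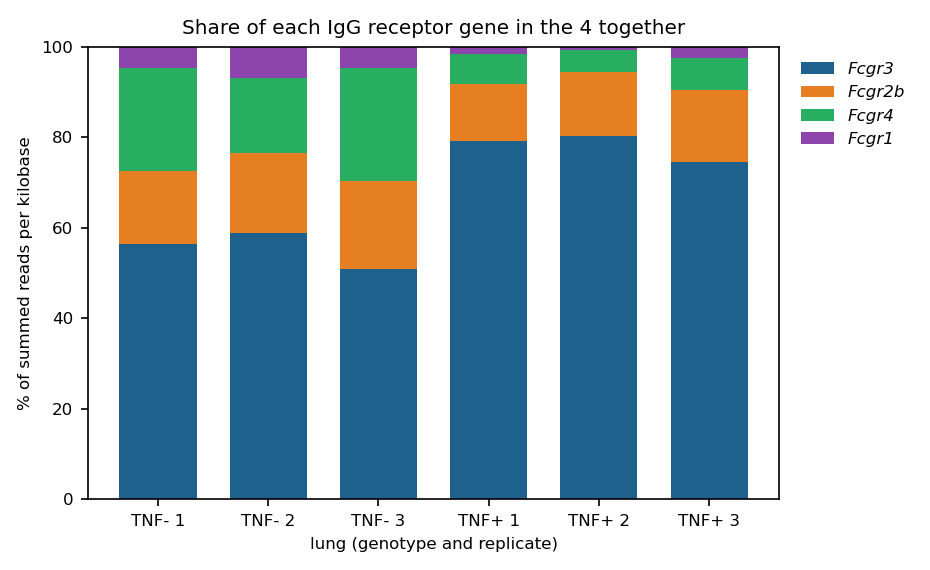
Share (percent) of the summed reads per kilobase of exon over the 4 IgG receptors Fcgr1, Fcgr2b, Fcgr3 and Fcgr4, in each of the 3 TNF- and 3 TNF+ lungs. Fcgr3 takes 50.8% to 58.8% in TNF- lungs and 74.5% to 80.3% in TNF+ lungs, and Fcgr4 takes 16.6% to 25.0% and 4.88% to 7.26%.

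Ratios within a lung do not depend on the scaling between lungs. The ratio of Fcgr3 to the inhibitory Fcgr2b, in reads per kilobase, was 6.16, 5.70 and 4.67 in TNF+ lungs and 3.50, 3.31 and 2.59 in TNF- lungs, a difference of 0.82 on the log2 scale. The ratio of Fcgr4 to Fcgr2b was 0.504, 0.346 and 0.455 in TNF+ lungs and 1.41, 0.936 and 1.27 in TNF- lungs, a difference of -1.47 on the log2 scale. The ratio of Fcgr1 to Fcgr2b was 0.125, 0.0522 and 0.143 in TNF+ lungs and 0.288, 0.384 and 0.238 in TNF- lungs, a difference of -1.61 on the log2 scale. Relative to the inhibitory receptor, Fcgr3 was thus higher and Fcgr4 and Fcgr1 were lower in every TNF+ lung. The ratio of Fcgr4 to Fcgr3 showed the widest gap, at 0.0819, 0.0608 and 0.0974 in TNF+ lungs and 0.403, 0.283 and 0.492 in TNF- lungs, a difference of -2.28 on the log2 scale. The gamma chain Fcer1g relative to the summed alpha chains Fcgr1, Fcgr3 and Fcgr4 was 2.16, 2.13 and 2.52 in TNF+ lungs and 2.90, 2.73 and 3.78 in TNF- lungs, a difference of -0.46 on the log2 scale. Each of the 6 ratios computed, the 6th being Fcgrt to B2m, had groups that did not overlap. Of all single tested genes, 58.7% had groups apart, and several of the ratios share a gene, so the 6 are not separate results. The exact two-sided permutation p was 0.1 for each (0.1 after Benjamini-Hochberg adjustment over the 6), the smallest that 3 lungs against 3 allow. None could thus pass the cutoff. In the order given, with Fcgrt to B2m last, the log2 differences were 0.73, -1.58, -1.78, -2.32, -0.42 and -1.16 without TNF+ replicate 1. Without TNF- replicate 1 they were 0.90, -1.35, -1.63, -2.25, -0.51 and -1.17, so that each kept its sign.

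**Figure D4:**
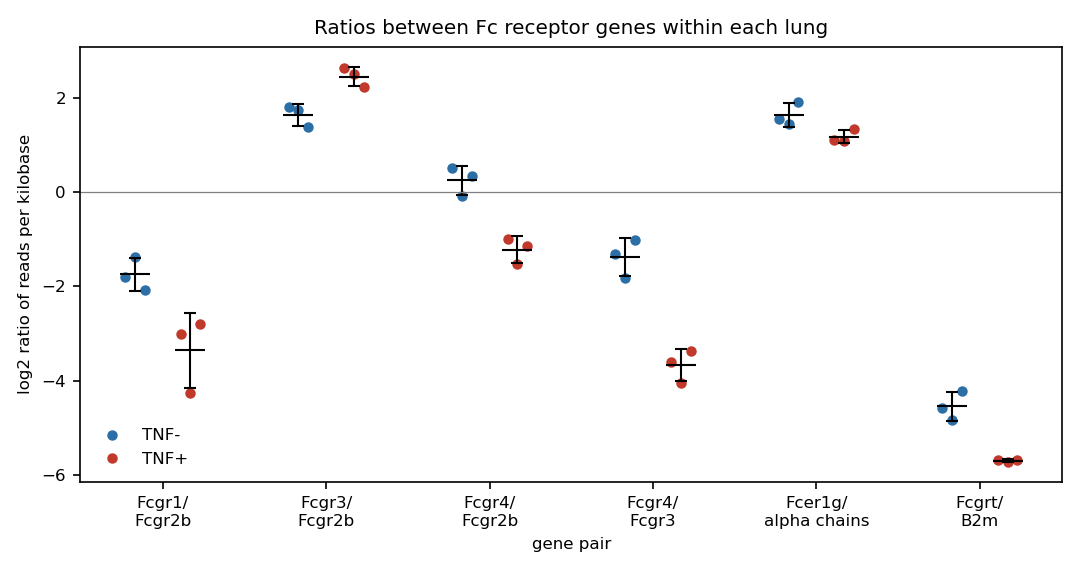
Log2 ratios of reads per kilobase of exon between Fc receptor genes, and of Fcgrt to B2m, in each TNF- (blue) and TNF+ (red) lung, with the mean and SD of 3 lungs as a line and bars. No pair of groups overlaps, and the mean of Fcgr4 to Fcgr3 goes from -1.39 to -3.67.

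Fcgrt, the neonatal Fc receptor, had 3112, 3124 and 2661 normalized counts in TNF+ lungs and 2977, 2749 and 3402 in TNF- lungs. The groups overlapped throughout. The log2 fold change was -0.04 with a standard error of 0.12 and an adjusted p of 0.812 from edgeR, and the 95% interval of the fold, 0.811 to 1.17, bounds the difference. Its partner chain B2m, which also serves the class I antigen-presenting molecules, rose from 28959.9 ± 3108 to 62793 ± 6416 normalized counts (SD, n = 3 each), a log2 fold change of 1.12 (adjusted p = 0.000653 from edgeR). The ratio of Fcgrt to B2m was 0.0195, 0.0189 and 0.0196 in TNF+ lungs and 0.0419, 0.0351 and 0.0540 in TNF- lungs. The Fcgrt level per B2m was thus lower in every TNF+ lung, by -1.15 on the log2 scale.

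Fcrls, an Fc receptor-like gene, had 169, 117 and 274 normalized counts in TNF+ lungs and 295, 292 and 211 in TNF- lungs. TNF+ replicate 3 lay among the TNF- lungs. The log2 fold change was -0.51 with a standard error of 0.30 and an adjusted p of 0.196 from edgeR, and without TNF+ replicate 3 it was -0.91 with an adjusted p of 0.0227. Fcer2a, the low-affinity IgE receptor, had 509, 814 and 949 normalized counts in TNF+ lungs and 394, 662 and 550.0 in TNF- lungs. Only TNF+ replicates 2 and 3 exceeded all TNF- lungs. The fitted log2 fold change was 0.50 with a standard error of 0.26 and an adjusted p of 0.141 from edgeR. Without TNF+ replicate 1 it was 0.68, at an adjusted p of 0.046. Without TNF- replicate 1, the log2 fold changes were -0.45 for Fcrls, 0.30 for Fcer2a and -0.08 for Fcgrt, and none passed the cutoff. Without TNF+ replicate 1, Fcrls stood at -0.48 and Fcgrt at -0.11, and neither passed.

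The alpha and beta chains of the high-affinity IgE receptor were near the limit of detection. Fcer1a had 0, 0 and 6 counts in TNF+ lungs and 2, 5 and 7 in TNF- lungs. Ms4a2 had 0, 3 and 6 counts in TNF+ lungs and 8, 12 and 19 in TNF- lungs. Fcer1a overlapped between the groups, and Ms4a2 did not, with TNF- above, as in 28.2% of all tested genes. An exact two-sided permutation test of the normalized counts gave p = 0.3 for Fcer1a and p = 0.1 for Ms4a2, the latter the smallest possible. With no filter on low counts, the log2 fold change of Ms4a2 was -1.91 with a standard error of 0.75 and an adjusted p of 0.0745 from edgeR, and that of Fcer1a was -1.04 (adjusted p = 0.531). Of 6 mast cell markers, 4 of the 5 tested were lower in TNF+ lungs and none was higher, where 23.4% of all tested genes were lower. Apart from Hdc, those called had few counts in TNF+ lungs (1, 0 and 5 for Tpsb2, 2, 2 and 14 for Cma1, and 1, 3 and 10 for Mcpt4). The summed normalized counts of the 6 ranged from 494 to 566 in TNF+ lungs and from 1866 to 2321 in TNF- lungs. Most of these counts came from Hdc, which basophils and neutrophils can also express. The mast cell tryptase Tpsab1 had 0 counts in all TNF+ lungs and 3, 1 and 1 in TNF- lungs, at the limit of detection in both. Of 3 basophil markers, only Prss34 was tested and it was lower, and the sums ranged from 3.96 to 36.8 in TNF+ lungs and from 22.0 to 41.2 in TNF- lungs. The part of these markers in the IgE receptor counts was not tested. The gamma chain Fcer1g, which this receptor shares with the IgG receptors, was higher in TNF+ lungs.

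Levels were compared between genes as RPKM, reads scaled to exon length and to the TMM-scaled library total. In TNF+ lungs Fcer1g was highest with a median of 350.1 RPKM (299 to 379), followed by Fcgr3 with 147 (105 to 166), Fcgrt with 49.0 (41.9 to 49.2) and Fcgr2b with 23.9 (22.6 to 29.1). No neighbours among these 4 overlapped. Below them came Fcgr4 with 10.3 RPKM (10.1 to 12.1) and Fcer2a with 8.71 (5.45 to 10.2), whose ranges overlapped, and then Fcgr1 with 2.98 (1.52 to 3.23) and Fcrls with 2.39 (1.66 to 3.88), which overlapped too. In TNF- lungs Fcer1g, with a median of 53.2 RPKM (50.5 to 67.2), overlapped with Fcgrt, with 46.9 (43.3 to 53.6), and Fcgr3 stood next with 11.7 (11.2 to 13.9). Fcer2a with 5.89 RPKM, Fcgr4 with 4.73, Fcgr2b with 4.21 and Fcrls with 4.14 followed, each overlapping with the next, and Fcgr1 came last of the tested members with 1.03 (0.965 to 1.62). Fcgr2b thus stood below Fcgrt in both groups, and above Fcgr4 without overlap only in TNF+ lungs. With the longest annotated transcript as the length, 6 of the 20 places in the orders changed. The median of Fcgr2b then stood above that of Fcgr4 in TNF- lungs as well, with overlap. In TNF+ lungs the median of Fcer2a then stood above that of Fcgr4, with overlap, and Fcer1g (64.7 to 86.0 RPKM) no longer overlapped with Fcgrt (51.4 to 63.6) in TNF- lungs.

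The transcripts of antibody heavy chains, whose IgG and IgE products these receptors bind, rose as well. All 7 immunoglobulin heavy chain genes tested were higher in TNF+ lungs, as were 24.0% of all tested genes, with Ighg3 at the median log2 fold change, 5.40. Their summed normalized counts ranged from 245088 to 612828 in TNF+ lungs and from 7825 to 42011 in TNF- lungs. Most of the sum in every lung came from Igha and Ighm, the heavy chains of IgA and IgM, which are no ligands of the 10 genes' products. Ighg2c, a main ligand of Fcgr4 and Fcgr1, rose by 6.51 on the log2 scale (standard error 0.78, adjusted p = 0.000327 from edgeR). Ighg1, bound by Fcgr3 and Fcgr2b, rose by 6.78, and Ighg2b by 6.02. Ighe, the heavy chain of IgE and the ligand of Fcer1a and Fcer2a, rose from 2.12 ± 2.01 to 67.4 ± 14.9 normalized counts (SD, n = 3 each), a log2 fold change of 4.89. Without TNF- replicate 3, which held the most heavy chain counts of the TNF- lungs, the log2 fold changes were 7.34 for Ighg2c, 7.56 for Ighg1, 6.80 for Ighg2b, 5.96 for Ighe, 5.89 for Igha (3.77 with all lungs) and 6.27 for Ighg3, which was again the median of the 7. Ighg3 had 15147, 1228 and 1188 normalized counts in TNF+ lungs, and without TNF+ replicate 1, which stood high, its log2 fold change was 3.09. Without TNF+ replicate 2 that of Ighm was 4.19, against 4.98 with all lungs. The heavy chain genes are alike in sequence, so reads could be split among them by the counting.

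Of 9 other Fc receptors and receptor-like genes, 8 were tested, of which 4 were higher, 1 was lower and 3 did not pass, where 47.4% of all tested genes passed. The B cell genes Fcrl5 (log2 fold change 2.21), Fcrlb (1.94), Fcrla (1.21) and Fcrl1 (0.79) were higher. Counts were low for Fcrlb, at 22, 23 and 18 in TNF+ lungs and 6, 5 and 8 in TNF- lungs. Fcrl5 had 7, 18 and 44 counts in TNF- lungs. Pigr, which carries IgA across epithelium, was lower, with a log2 fold change of -1.11 (adjusted p = 0.0355 from edgeR). It had 2078, 2379.5 and 1694 normalized counts in TNF+ lungs and 2661, 3117 and 7454 in TNF- lungs, where replicate 3 stood high. Without TNF- replicate 3 its log2 fold change was -0.50 (adjusted p = 0.0292), and the adjusted p was 0.0779, 0.0661 and 0.11 without TNF+ replicate 1, 2 and 3. Without TNF- replicate 3 the log2 fold change of Fcrl5 was 3.02. Fcamr, a receptor for IgA and IgM, had a log2 fold change of 0.65 (adjusted p = 0.268), and of 1.34 without TNF- replicate 3 (adjusted p = 0.0162), and Trim21, the cytosolic antibody receptor, one of -0.17 (adjusted p = 0.383). The median over the 8 was 0.72. The adjusted p of Fcmr, the IgM receptor, was 0.998.

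The genes that carry the signal of activating receptors moved one way. All 16 tested were higher in TNF+ lungs, as were 24.0% of all tested genes, with a median log2 fold change of 1.44. Tyrobp, an adaptor of the same kind as Fcer1g, rose by 2.85 on the log2 scale, close to the 2.59 of Fcer1g. The Src family kinase Fgr rose by 2.79 and the adaptor Lcp2 by 2.26. Syk, the kinase that docks on the phosphorylated gamma chain, rose by 1.37 (standard error 0.12, adjusted p = 7.73e-05 from edgeR), which is less than Fcer1g itself. Lyn rose by 0.48 and Gab2 by 0.53, the smallest changes among the 16 together with Cd247 at 0.63. With each lung left out in turn 14 or 15 of the 16 passed, with Cd247 and Gab2 each lost in 5 of the 6 cases. Scaling by total counts or by the size factors of DESeq2 left 15, and a minimum absolute log2 fold change of 1 left 12.

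Of 9 genes that carry the signal of Fcgr2b and other inhibitory receptors, 5 were higher, 1 was lower and 3 did not pass, with a median of 0.69, where 47.4% of all tested genes passed. Of the 9, 3 passed the cutoff with an absolute log2 fold change of at least 1. Inpp5d, the lipid phosphatase SHIP that docks on the motif of Fcgr2b, rose by 0.69 on the log2 scale (standard error 0.13, adjusted p = 0.00356 from edgeR), against 2.67 for Fcgr2b. The tyrosine phosphatase Ptpn6 rose by 1.66, and the adaptor Dok2 by 1.92. Ptpn11 fell by 0.63. Csk, Inppl1 and Cblb had log2 fold changes of 0.24, -0.29 and -0.22 (adjusted p of 0.0561, 0.0506 and 0.113 from edgeR). DESeq2 and limma-voom each called 7 of the 9, and 8 passed without TNF- replicate 3.

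Markers of the cells that carry Fc receptors were read as lists chosen by cell type. Over all tested genes 24.0% were higher and 23.4% lower in TNF+ lungs, to be set beside each count. All 6 macrophage markers were higher in TNF+ lungs, with a median log2 fold change of 2.93, and their summed normalized counts ranged from 54543 to 66451 in TNF+ lungs and from 9449 to 10088 in TNF- lungs. Of 5 monocyte markers 4 were higher (median 1.03, sums 9876 to 15617 against 4696 to 5360.3), and of 5 dendritic cell markers 3 were higher (median 1.74, sums 11762 to 14706 against 3772 to 3845). Most of the dendritic cell sum was Itgax, which macrophages also carry, with 9189.7 to 12452 normalized counts in TNF+ lungs, while Zbtb46 stood at -0.27 and Xcr1 at 0.46 and neither passed. Of 6 alveolar macrophage markers 2 were higher and 3 lower, and their TNF+ sum was governed by Marco, a scavenger receptor with 49542 to 95434 normalized counts in TNF+ lungs and 259.9 to 885 in TNF- lungs. Of 6 neutrophil markers none was higher and 4 were lower (median -1.26, sums 585 to 1315 against 1832 to 3158), and of 5 natural killer cell markers 1 was higher and 3 were lower (median -1.23, sums 372 to 426 against 471 to 703). Of 6 B cell markers 4 were higher (median 0.77, sums 8791 to 9794 against 4012 to 7103), beside the value of 0.50 for Fcer2a. Of 4 T cell markers 3 were higher (median 0.86, sums 9309.6 to 13589 against 896 to 1564), and the TNF+ sum was governed by Cd4, which myeloid cells can also express, with 8082 to 12313 normalized counts against 279 to 557. Cd3d and Cd8a each rose by 0.86 on the log2 scale, and Cd3e, at 0.23, did not pass. All 5 endothelial markers were lower (median -1.17, sums 39507 to 45531 against 74495 to 89748), beside the value of -0.04 for Fcgrt. Of 5 lung epithelial markers 4 were lower and none was higher (median -1.40, sums 496913 to 651807 against 1008059.8 to 1225483), and their high level in every library marks the labelled tissue. The part of any of these lists in the Fc receptor values was not tested. Ptprc, the general leukocyte gene, rose by 1.43 on the log2 scale.

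The neighbours of Fcgr2b, Fcgr4, Fcgr3 and Fcer1g on chromosome 1 were read by position. Of 27 other protein-coding genes within 250 kb, 25 were tested, of which 6 were higher, 4 were lower and 15 did not pass, near the 24.0% higher and 23.4% lower of all tested genes. Their median was -0.06 on the log2 scale, against 0.03 over all tested genes. Adamts4, a protease near Fcer1g, rose by 2.57, and Fcrlb, near Fcgr2b, by 1.94. Arhgap30 rose by 1.42. Between Fcgr3 and Fcer1g, by contrast, Pcp4l1 fell by 2.00 and Cfap126 by 1.45.

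**Figure D5:**
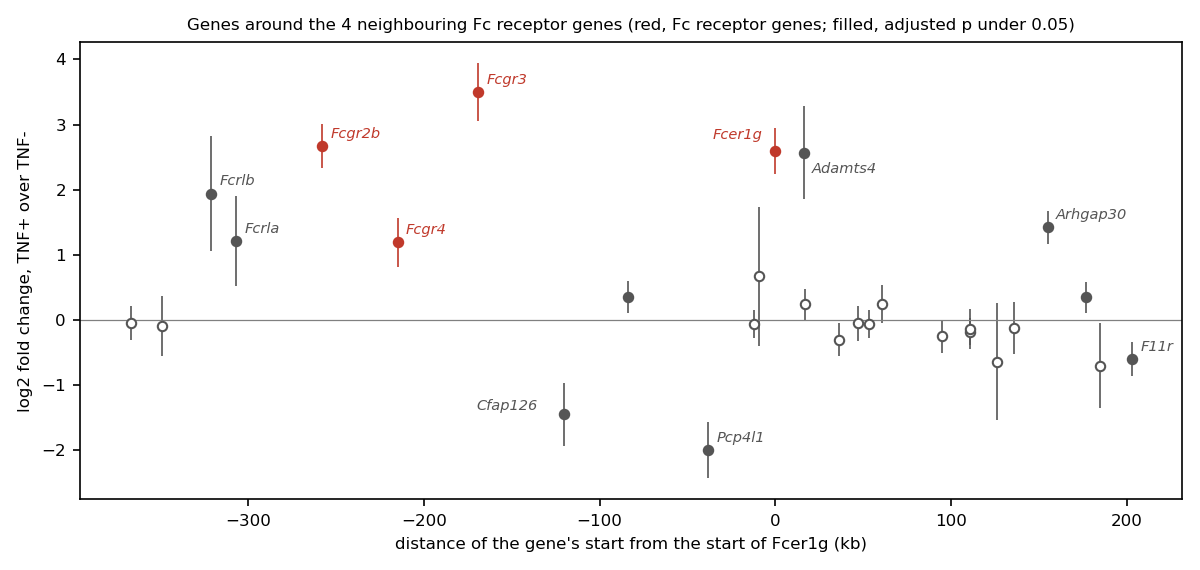
Log2 fold change (TNF+ over TNF-) with its 95% interval from edgeR for most of the tested protein-coding genes around Fcgr2b, Fcgr4, Fcgr3 and Fcer1g, by the distance in kilobases of each gene's start from that of Fcer1g, with Fc receptor genes in red and filled points where the adjusted p was under 0.05. The 4 receptor genes lie between 1.19 and 3.50, and the genes between Fcgr3 and Fcer1g include Pcp4l1 at -2.00.

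The genes whose profile over the 6 lungs was nearest to that of each member were found by the Euclidean distance of mean-centred log2 CPM, over 14998 genes. The nearest to Fcer1g was Ncf1, a subunit of the phagocyte oxidase, at a distance of 0.11, followed by Hcls1 (0.20) and Cd84 (0.21). The nearest to Fcgr2b were Dpep2 (0.11), Csf2rb (0.18) and Mcemp1 (0.18). These profiles nearly overlie those of the members. The nearest to Fcgr3 were farther off, at 0.33 for Gm15922 and Pira2. Fcgr4 was nearest to Tmem251 (0.19) and Sdf2l1 (0.19). Fcgrt was nearest to Dctn6 (0.06). Each distance describes these 6 lungs alone.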

How the data were processed

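Poly(A) RNA of 3 TNF+ and 3 TNF- lungs was sequenced with a stranded kit as single-end reads of 100 bases. Per the submitters' processing notes, the authors trimmed reads with Trimmomatic (version 0.36), aligned them to GRCm38.p5 with STAR (version 2.5.2b) and counted with featureCounts, and deposited raw counts per gene symbol, without normalization. The annotation and the strand setting are not given in the sources used here, so a gene and its antisense partner may share reads. Each library is 1 mouse.

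The test was that of edgeR (version 4.0.16, under R version 4.3.3), with filterByExpr, TMM scaling, the two-sided quasi-likelihood test on genotype and Benjamini-Hochberg adjustment at 0.05. The study used DESeq2, taken here as an alternative. The standard error is the log2 fold change divided by the square root of F. Normalized counts are counts over the TMM-scaled total, times its mean. Log2 CPM used a prior count of 2. RPKM and ratios used the merged exon length in GENCODE M21, and ratios were compared with exact permutation tests (scipy version 1.17.1). Of 49568 symbols, 47139 had a gene model. Sequences came from RefSeq and GRCm38.

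The members and lists were chosen with earlier results of these data known. Named were all members, list genes with the extreme changes or textbook roles, B2m, the 3 nearest profiles per member and neighbours within 250 kb with the largest changes, of which some single values are not reported here. Gm42418, Krt4, Krt13, Tnf, Ptprc, Gm38204 and single marker genes were named after values were seen. Alternatives were DESeq2 (version 1.42.0), limma-voom (version 3.58.1), other scalings and filters, a minimum log2 fold change of 1, a replicate block, another gene length and each lung left out. The tests were checked on simulated counts. Total counts of 25396923 to 32529408 set 3 counts at 0.0922 to 0.118 CPM.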

Additional observations from a re-analysis of the deposited data

How the results depend on the processing

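Fcgr2b, Fcgr3, Fcgr4 and Fcer1g passed the cutoff in the same direction in 13 of 13 alternatives, with log2 fold changes of 2.53 to 2.73, 3.36 to 3.65, 1.07 to 1.31 and 2.48 to 2.72. Fcgr1 passed in 8 of 13. With each lung left out in turn its log2 fold change ranged from 0.88 to 1.37, and it passed in 2 of 6. With the same leave-outs Fcrls ranged from -0.91 to -0.26, passing without TNF+ replicate 3, and Fcer2a from 0.29 to 0.68, passing without TNF+ replicate 1. The members called numbered 6 without TNF+ replicate 3, which counts in Fcer1a or Ms4a2, tested there though not with all lungs. Fcgrt ranged from -0.11 to 0.05, turning to 0.02 without TNF+ replicate 3 and 0.05 without TNF- replicate 3, with no call in any.

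Same-numbered mice are different animals, and their deviations from the group means did not go together (mean correlation across genes -0.132, against 0.066 for other pairs). With the number as a replicate block, Fcgr1 had a log2 fold change of 1.07 (adjusted p = 0.0741 from edgeR), Fcer2a one of 0.49 (adjusted p = 0.0417) and 7686 genes passed. The block changed no other call among the members.

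A minimum absolute log2 fold change of 1 took the genes called from 9096 to 4320 and inhibitory signalling genes from 6 to 3, by its own construction. At least 10 counts in every lung took the other Fc receptors called from 5 to 3, as Fcrlb and Fcrl5 fell below that filter. The longest transcript as gene length moved 6 places in the order of levels. DESeq2 called 9134 genes and limma-voom 9032.

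With 3 lungs a group, the smallest exact p of a ratio is 0.1, and Fcer1a and Ms4a2 had 19 counts or fewer in every lung, so differences in them are little resolved at this depth.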
